A study of Rattus norvegicus with 6 samples.

Results

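The transforming growth factor beta (TGF-beta) and activin pathway was followed through 10 genes in cultured fibroblast-like cells of the joint lining (synovium). The 10 members were taken by symbol from the 17221 transcript rows (16499 distinct symbols) of the series. Their values did not enter this rule, but the members were chosen with earlier results of these data known. They are the ligand genes Tgfb1, Tgfb2, Tgfb3 and Inhba, the receptor genes Tgfbr1, Tgfbr2 and Tgfbr3, and the genes of 3 binding proteins, Fst, Fstl3 and Ltbp1. Each had 1 row, overlapped no other row and was among the 9820 rows tested.

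TGF-beta ligands are secreted in a latent form, with the mature dimer held by its own propeptide, and LTBP proteins tie this complex to the matrix. Once released, the ligand binds the type II receptor (Tgfbr2), which activates the type I receptor (Tgfbr1), and Smad2 and Smad3 carry the signal to the nucleus. Activin A, a dimer of the Inhba chain, signals to the same Smads through its own receptors and is trapped by follistatin (Fst) and the follistatin-like protein Fstl3. In joint fibroblasts this pathway is known for matrix production and for the contractile state.

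Cells came from the synovium of 2 female Wistar rats with collagen-induced arthritis, taken at disease onset before any therapy. Per the labels, cells of 2 rats were used in each of the 3 serological settings. Libraries were paired by replicate number, which is taken here as the rat. A culture or library batch with the same numbering could not be told apart from the rat. FBS was standard medium with fetal bovine serum. The study states that cells were expanded in such medium beforehand, so either rat serum was also a switch to serum of another species. MS− was medium with blood serum of untreated animals, and MS+ was medium with blood serum of animals under mechanical stimulation (named acupuncture in the labels), drawn at day 18, midway through the treatment. Each setting therefore had 2 libraries, 1 per rat, and the age of the rats and the number of serum donors were not given in the sources used here. The MS− serum is described as drawn before therapy and also as drawn from untreated arthritic animals, and 1 label field of these libraries names healthy rats, so its exact origin is not settled here.

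Libraries held 5463316 to 5991889 reads, and 3 reads, the floor of detection in 1 library, were 0.491 to 0.551 CPM. Values are in CPM, reads per library scaled by the TMM method of the authors. Levels were not compared between genes, because the rows give no transcript length. Of 12 fibroblast markers, 11 were at 1 CPM or more in every library, while decorin (Dcn) had 0 to 0.901 CPM. Of 9 macrophage markers 6 had no reads, Ptprc and Itgam among them, and the summed level of the list, mostly Cd14, was 13.8 to 14.6 CPM in FBS, 17.2 to 20.5 in MS− and 16.3 to 17.7 in MS+. No lymphocyte marker exceeded 3 reads, and summed endothelial and epithelial markers reached at most 1.47 and 1.28 CPM. Chondrocyte markers summed to 2586 to 3014 CPM in FBS, 1453 to 1828 in MS− and 2540.5 to 2672 in MS+, nearly all of it Acan, whereas Col2a1 did not exceed 0.663 CPM. Summed fibroblast markers, mostly collagens, were at 81230 to 88084 CPM in FBS, 62856 to 65471 in MS− and 71307 to 73987 in MS+. The part of these marker levels in the results given here was not tested.

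The differences that passed the test were in the 3 binding proteins and 1 receptor. With the rat as a block, Fstl3 and Ltbp1 rose in both rat sera over FBS, Fst rose in MS+ over both other settings, and Tgfbr1 fell in MS+ against FBS. None of the 4 ligand genes passed in any comparison. Without the block, 0 members passed in limma in each of the 3 comparisons, where 0.0204% of all features did for MS+ against MS−, 9.61% for MS+ against FBS and 4.81% for MS− against FBS. At an unadjusted p under 0.05 that fit held 1 member (Tgfbr1), 3 members (Tgfbr1, Fstl3 and Ltbp1) and 2 members (Fstl3 and Ltbp1) respectively. The share of all features at that unadjusted threshold was not counted, so these counts cannot be read against a background. The alternatives edgeR and DESeq2 were run with the block only.

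**Figure D1:**
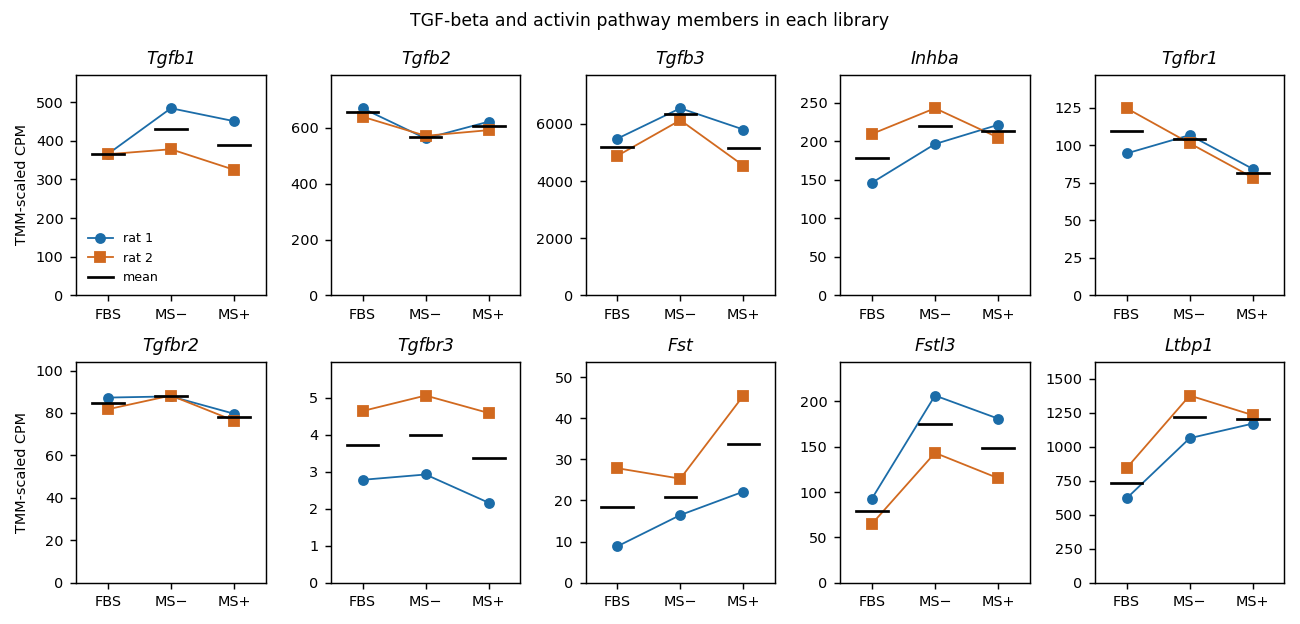
Levels of the 10 members in each library, in TMM-scaled CPM on linear axes that start at 0, with the culture setting on the horizontal axis. Circles are rat 1, squares are rat 2, lines join the libraries of a rat and black bars are the means of the 2 libraries. Both rats had more Fstl3 and Ltbp1 in each rat serum than in FBS, while the cells of rat 2 had more Fst than those of rat 1 in all 3 settings.

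The stretches before the annotated starts of the 3 members that passed against FBS and had an entry are shown here for orientation, as 250 bases each of the RefSeq sequence (GRCr8), 5′ to 3′ on the strand of the gene. Of the 10 members, 9 were matched by symbol, all but Fst. Capitals mark CAGAC or its reverse complement GTCTG, the core letters that Smad proteins are known to bind. Fstl3 lies upstream at chr7:10579845-10580094 (minus strand), Ltbp1 at chr6:26177302-26177551 (minus strand) and Tgfbr1 at chr5:66449148-66449397 (plus strand).
Fstl3: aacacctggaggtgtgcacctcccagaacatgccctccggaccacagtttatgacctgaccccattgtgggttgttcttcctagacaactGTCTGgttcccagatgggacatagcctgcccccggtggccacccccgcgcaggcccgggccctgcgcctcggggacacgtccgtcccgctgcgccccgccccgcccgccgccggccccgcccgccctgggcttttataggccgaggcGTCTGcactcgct
Ltbp1: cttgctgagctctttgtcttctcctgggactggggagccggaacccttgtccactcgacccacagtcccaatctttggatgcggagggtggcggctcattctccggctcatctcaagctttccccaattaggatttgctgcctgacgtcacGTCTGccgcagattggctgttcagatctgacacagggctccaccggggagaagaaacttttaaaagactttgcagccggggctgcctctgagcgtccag
Tgfbr1: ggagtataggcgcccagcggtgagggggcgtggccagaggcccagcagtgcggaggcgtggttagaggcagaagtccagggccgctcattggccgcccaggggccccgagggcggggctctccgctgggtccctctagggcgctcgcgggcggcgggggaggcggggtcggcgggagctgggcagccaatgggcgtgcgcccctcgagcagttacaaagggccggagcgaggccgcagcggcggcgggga

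CAGAC, searched on both strands, occurred 2 times in the Fstl3 window and 1 time in that of Ltbp1. It was in none of the other 7 windows, and 42.9% of all 33469 promoter windows of the same length held it. The AP-1 letters TGANTCA, which read the same on both strands, were in 0 of the 9 windows and in 6.34% of all windows. GGGCGG, searched on both strands, occurred 4 times before Fstl3 and 3 times before Tgfbr1, with 1 match each before Tgfbr2 and Tgfbr3, and 30.5% of all windows held it. Neighbouring GGGCGG matches before Fstl3 shared bases with each other, no match shared bases with one of another pattern, and all of them describe letters only. GC content of the windows was 68.8% for Fstl3, 56.8% for Ltbp1 and 75.6% for Tgfbr1.

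Each rat serum was first set against FBS, the medium in which such cells are usually kept. Between MS+ and FBS, 4 of the 10 members passed the adjusted threshold (3 higher, 1 lower), where 28.2% of all 9820 features did, 14.4% higher and 13.9% lower. Between MS− and FBS, 2 members passed, both higher, against 20.5% of all features, 10.8% higher and 9.63% lower. The median log2 fold change of the members was 0.03 for MS+ and 0.26 for MS−, beside 0.00078 and 0.014 for all features. Both comparisons share the FBS libraries, so their values stand side by side and are not independent. With 2 libraries a group, all features gave groups that did not overlap in 28.4% (higher) and 28.3% (lower) of cases for MS+ and in 27.1% and 24.5% for MS−, so that a lack of overlap in 1 member is common. By the criteria of the study (at least 2-fold, unadjusted p below 0.05, mean at or above 1 CPM), Fstl3 passed for MS−, where 3.88% of features did, and no member passed for MS+, where 5.6% did.

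Fstl3 (NM_053629, chromosome 7, 11438360 to 11442885 in rn4, minus strand), whose product traps activin outside the cell, had the clearest difference. It measured 92.7 CPM in rat 1 and 64.8 in rat 2 with FBS, 206 and 143 with MS−, and 181 and 115 with MS+. Group means were 78.7 ± 19.7, 175 ± 44.7 and 148 ± 46.4 CPM (SD, n = 2 each). Every rat serum library lay above both FBS libraries, and rat 1 was the higher rat in each setting. It rose in MS− over FBS by 1.14 (SE 0.09, limma adjusted p 2.62e-07), which was 1.15 in rat 1 and 1.13 in rat 2. In MS+ it rose by 0.89 (SE 0.09, limma adjusted p 2.87e-06), with 0.96 and 0.82 in the respective rats. Without the block the limma adjusted p was 0.0722 for MS− and 0.0926 for MS+, and each other alternative kept both calls. In these bulk cultures, a change in the share of a cell type and a change in RNA per cell cannot be told apart.

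Ltbp1 (NM_021587, chromosome 6, 19942626 to 20355085, minus strand), the matrix protein that anchors latent TGF-beta, also rose in both rat sera. Its levels were 621 CPM in rat 1 and 843 in rat 2 with FBS, 1064 and 1378 with MS−, and 1171 and 1233 with MS+. The means were 732 ± 157, 1221 ± 222 and 1202 ± 43.9 CPM (SD, n = 2 each), and neither rat serum overlapped FBS. The rise over FBS was 0.74 (SE 0.09, limma adjusted p 3.58e-05) in MS− and 0.73 (SE 0.09, limma adjusted p 3.11e-05) in MS+. Within rats it was 0.78 and 0.71 for MS−, and 0.91 and 0.55 for MS+. Dropping the block gave a limma adjusted p of 0.0752 and 0.0536, and with the block both calls held in every alternative.

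Fst (NM_012561, chromosome 2, 46542246 to 46550678, minus strand), the classic activin antagonist, had few reads and differed strongly between the rats. With FBS it was at 8.84 CPM in rat 1 (54 reads) and 27.9 in rat 2 (168 reads), with MS− at 16.5 and 25.3, and with MS+ at 22.2 and 45.5. All 3 settings overlapped across rats, and MS+ was highest within each rat. It rose in MS+ over FBS by 0.96 (SE 0.19, limma adjusted p 0.00128), by 1.24 in rat 1 and 0.69 in rat 2. This call was lost only without the block (0.297) among the 14 alternatives. The difference between MS− and FBS, 0.35 (SE 0.19, limma adjusted p 0.220), did not pass and had opposite signs in the rats, 0.83 and -0.13. Without FBS replicate 2 that difference was 0.72 and passed (0.00421), and without FBS replicate 1 it was -0.03.

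Tgfbr1 (NM_012775, chromosome 5, 63976868 to 64034058, plus strand), the type I receptor kinase, was the member that fell. It measured 94.5 and 125 CPM in rats 1 and 2 with FBS, 107 and 101 with MS−, and 84.1 and 78.4 with MS+. MS+ was below all 4 other libraries, while MS− lay within the span of FBS. The log2 fold change of MS+ against FBS was -0.41 (SE 0.12, limma adjusted p 0.0139), -0.16 in rat 1 and -0.66 in rat 2. The call rested on rat 2, since it was lost without FBS replicate 2 (-0.17, 0.359) or MS+ replicate 2 (-0.28, 0.0778), and also without the block (0.115), with no filter on low values (0.0841) and in DESeq2 (0.0879). MS− against FBS differed by -0.06 (95% interval -0.31 to 0.18).

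**Figure D2:**
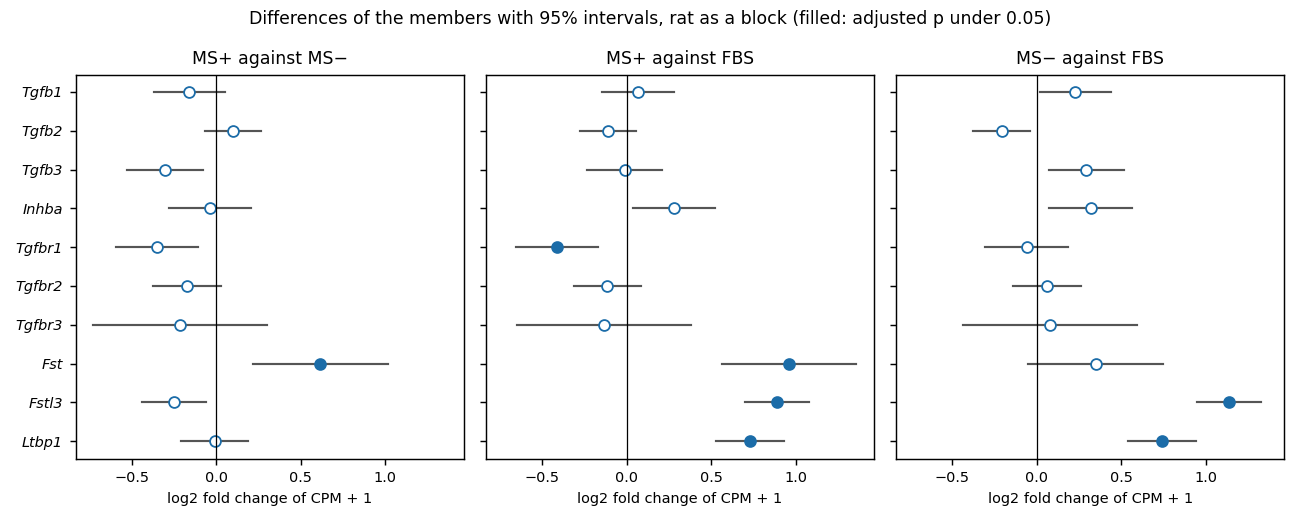
Log2 fold changes of CPM + 1 for the 10 members in the 3 comparisons, from limma with the rat as a block. Points are the estimates, horizontal lines are 95% intervals, and filled points passed an adjusted p of 0.05. Fst is filled in both comparisons of MS+, Fstl3 and Ltbp1 in both comparisons with FBS, and Tgfbr1 for MS+ against FBS only.

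The other receptors showed small differences. Tgfbr2 (NM_031132, chromosome 8, 120593595 to 120680453, minus strand), the ligand-binding type II receptor, ranged from 76.3 to 88.2 CPM over the 6 libraries. Its log2 fold change against FBS was -0.11 in MS+ (95% interval -0.31 to 0.09) and 0.06 in MS− (95% interval -0.14 to 0.26). Tgfbr3 (NM_017256, chromosome 14, 3051039 to 3240286, plus strand), the co-receptor betaglycan, had 12 to 28 reads per library, or 2.16 to 5.06 CPM. At this depth its intervals were the widest of the members, from -0.65 to 0.38 for MS+ and from -0.44 to 0.59 for MS− against FBS. Rat 2 had the higher Tgfbr3 level in each setting.

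Among the ligands, Tgfb3 (NM_013174, chromosome 6, 110173439 to 110195215, minus strand) had the most reads, 24730 to 35785 per library. It stood at 5481 CPM in rat 1 and 4880.5 in rat 2 with FBS, 6546 and 6129 with MS−, and 5801 and 4539 with MS+. Both MS− libraries were above all 4 others. The difference between MS− and FBS was 0.29 (SE 0.10, limma adjusted p 0.0612), short of the threshold, and passed with limma-voom (0.0148), with edgeR (0.0339) and without FBS replicate 2 (0.0243). For MS+ against FBS it was -0.01 (95% interval -0.23 to 0.21).

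Tgfb1 (NM_021578, chromosome 1, 80894705 to 80911020, plus strand), the isoform best known in fibrosis, was nearly equal in the rats with FBS, at 366 and 365 CPM. It was at 484 and 378 CPM with MS−, and at 451 and 325 with MS+. MS− lay above FBS in both rats, by 0.40 and 0.05, with a fitted difference of 0.23 (SE 0.10, limma adjusted p 0.126). Leaving out FBS replicate 2 it passed (0.43, adjusted p 0.000435), and it did so on dropping either MS+ library (0.0304 and 0.0308). MS+ against FBS gave 0.07 (limma adjusted p 0.658), with 0.30 in rat 1 and -0.17 in rat 2, and passed without FBS replicate 2 (0.27, adjusted p 0.0392).

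Tgfb2 (NM_031131, chromosome 13, 102718704 to 102818768, minus strand) encodes the remaining TGF-beta isoform. Its libraries were at 669.7 and 639 CPM with FBS, 562 and 571 with MS−, and 622 and 591 with MS+. The 3 settings did not overlap, with FBS highest and MS− lowest. Even so, the difference of -0.21 (SE 0.08, limma adjusted p 0.0753) between MS− and FBS did not pass, although it did under library totals (0.0405), without MS+ replicate 1 (0.0450) and without MS+ replicate 2 (0.0455). MS+ against FBS gave -0.11 (limma adjusted p 0.327).

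Inhba (NM_017128, chromosome 17, 57244466 to 57257536, minus strand), the activin A chain, was at 146 and 210 CPM in rats 1 and 2 with FBS, 197 and 243 with MS−, and 222 and 205 with MS+. The settings overlapped, and FBS of rat 1 was the lowest library. Against FBS it differed by 0.32 in MS− (SE 0.11, limma adjusted p 0.0625) and by 0.28 in MS+ (SE 0.11, limma adjusted p 0.0800), neither of which passed. Without FBS replicate 2 both passed, at 0.53 (adjusted p 4.94e-05) and 0.49 (adjusted p 0.000160). For MS− the call was also made without MS+ replicate 1 (0.00173) or MS+ replicate 2 (0.00171), and for MS+ without MS+ replicate 2 (0.54, adjusted p 6.53e-05).

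Serum of stimulated animals was then set against that of untreated ones, MS+ against MS−. As the origin of the MS− serum is not settled, stimulation cannot be told apart here from the donors' time of disease or disease state. Of the 10 members, 1 passed the adjusted threshold, Fst, where 10.1% of all features did (5.27% higher and 4.78% lower). The median member difference was -0.17, with 8 of 10 lower in MS+, beside a median of -0.0058 over all features. The share of all features lower in MS+ was not counted. Among those 8, Inhba (-0.04) and Ltbp1 (-0.01) were close to no difference and had opposite signs in the rats. Groups without overlap made up 22.6% (higher) and 23.1% (lower) of all features here. No member met the criteria of the study in this comparison, where 1.38% of features did. Without the block 2 of all 9820 features passed, and neither was a member.

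Fst rose in MS+ over MS− by 0.61 (SE 0.19, limma adjusted p 0.0496), by 0.41 in rat 1 and 0.82 in rat 2. This value sat at the threshold. It was 0.663 without the block, 0.0523 with a pseudocount of 0.1, 0.209 without the filter, 0.0546 under library totals and 0.275 in DESeq2. Leaving out MS− replicate 1 gave 0.96 (adjusted p 0.0693), MS− replicate 2 gave 0.27 (0.686) and MS+ replicate 1 gave 0.58 (0.0524).

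Several members were lower in MS+ than in MS− in both rats without passing. Tgfbr1 differed by -0.35 (SE 0.12, limma adjusted p 0.0649), with -0.34 in rat 1 and -0.37 in rat 2. Tgfb3 differed by -0.30 (SE 0.10, limma adjusted p 0.0796), with -0.17 and -0.43. Fstl3 differed by -0.25 (SE 0.09, limma adjusted p 0.0864), with -0.19 and -0.31. These 3 depended on the libraries in the fit. Without FBS replicate 1 or 2 all 3 passed, at 0.00386 and 0.00452 for Tgfbr1, 0.00508 and 0.00435 for Tgfb3, and 0.0412 and 0.0376 for Fstl3. Tgfbr1 also passed without MS+ replicate 1 (-0.48, adjusted p 0.00442), and Tgfb3 with limma-voom (0.0206), edgeR (0.0445) and library totals (0.0440).

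The remaining differences between MS+ and MS− were smaller, and their intervals held 0. Tgfb1 differed by -0.16 (95% interval -0.37 to 0.05), Tgfbr2 by -0.17 (-0.37 to 0.03) and Tgfbr3 by -0.21 (-0.73 to 0.30). Tgfb2 differed by 0.10 (-0.07 to 0.27). Inhba, at -0.04 (-0.28 to 0.21), and Ltbp1, at -0.01 (-0.21 to 0.19), had opposite signs in the rats. For Inhba these were 0.17 in rat 1 and -0.24 in rat 2, and for Ltbp1 0.14 and -0.16.

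For some members the cells of the 2 rats differed as much as the sera did. Rat 2 had the same direction against rat 1 in all 3 settings for 6 of the 10 members, beside 42.4% of all features. With 1 animal on each side this is a description, with no test. Fst was higher in rat 2 by 1.55 in FBS, 0.59 in MS− and 1.01 in MS+ on the log2(CPM + 1) scale. Tgfbr3 was higher by 0.58, 0.63 and 0.82, and Ltbp1 by 0.44, 0.37 and 0.07. Fstl3 was lower in rat 2 by values of -0.51, -0.52 and -0.65. Tgfb1 and Tgfb3 were the others lower in rat 2 in each setting, Tgfb1 by only -0.0017 in FBS. The 2 activin antagonists thus stood in opposite order in the 2 rats.

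**Figure D3:**
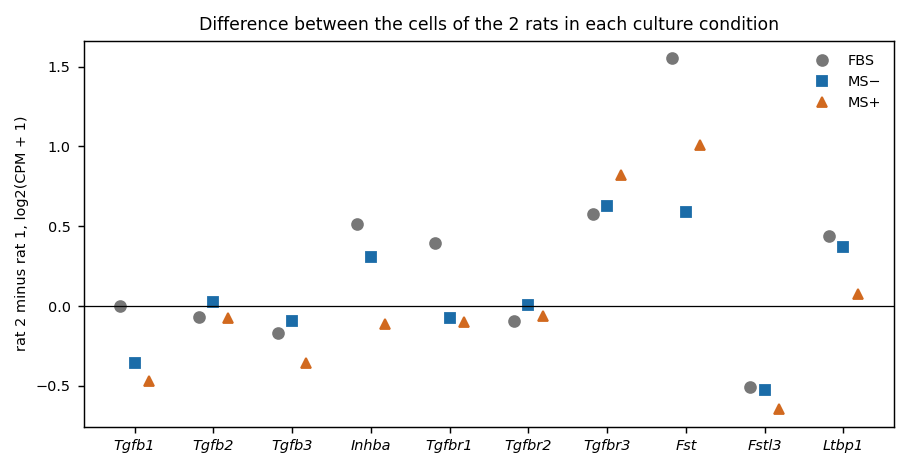
Difference between the cells of rat 2 and rat 1 for each member, in log2(CPM + 1), with 1 point per culture setting (grey circles FBS, blue squares MS−, orange triangles MS+). Fst lies above 0 at 0.59 to 1.55 and Fstl3 below 0 at -0.65 to -0.51 in all 3 settings.

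Other genes of the pathway were taken from 5 lists of 74 genes, of which 60 were in the table and 47 were tested. Against FBS 22 of them passed the adjusted threshold in MS+ and 18 in MS−, and 8 passed when MS+ was compared with MS−. These are of 47, beside 28.2%, 20.5% and 10.1% of all features. Without the block the counts were 9, 4 and 0, beside 9.61%, 4.81% and 0.0204% of all features. With at most 17 genes a list, the counts by list that follow are to be read against the shares with the block, which were 14.4% higher and 13.9% lower for MS+ against FBS, 10.8% and 9.63% for MS− against FBS, and 5.27% and 4.78% for MS+ against MS−.

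Of 13 related ligands, 12 had a row and 3 were tested (Inha, Inhbb and Gdf15). Gdf11 had no row, and no untested ligand with a row had more than 1 read in a library. In MS+ over FBS 2 rose and 0 fell. Inha, the alpha chain that turns activin subunits into the antagonist inhibin, was at 2.78 and 3.81 CPM with FBS, 5.85 and 4.16 with MS−, and 7.93 and 10.5 with MS+. Its rise over FBS was 1.25 (SE 0.25, limma adjusted p 0.00138, and 0.0309 without the block). Gdf15, a stress-induced distant member of the family, rose in MS+ over FBS by 0.56 (SE 0.18, limma adjusted p 0.0307). That call was lost without FBS replicate 2 (0.201), MS− replicate 1 (0.0654), MS− replicate 2 (0.0631) or MS+ replicate 2 (0.188), without the block (0.125), with no filter (0.0826) and in DESeq2 (0.316). No related ligand passed in either other comparison.

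Of 6 tested related receptors and co-receptors, none passed between MS+ and MS−, 2 fell in MS+ against FBS (28.2% of all features passed) and 1 fell in MS− (20.5%), so neither count stood clear of the background. Acvrl1, the type I receptor ALK1, was at 103 and 104 CPM with FBS, 65.7 and 78.6 with MS−, and 51.5 and 66.3 with MS+. It fell by 0.82 on the log2 scale in MS+ (SE 0.11, limma adjusted p 3.42e-05, and 0.0226 without the block) and fell by 0.52 in MS− (SE 0.11, limma adjusted p 0.00235, and 0.108 without the block). The MS− call was lost without FBS replicate 1 (0.0542), MS− replicate 1 (0.0995) or MS− replicate 2 (0.0570). Bambi, a decoy receptor, fell in MS+ by 0.44 (SE 0.15, limma adjusted p 0.0407). Its call was lost without the block (0.194) and without any one library, at 0.0636 and 0.255 for the FBS replicates, 0.0817 and 0.0850 for MS−, and 0.0623 and 0.143 for MS+, and also with no filter (0.0800) and in DESeq2 (0.328).

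Of 10 tested genes of latency, activation and extracellular binding, 1 rose and 1 fell in MS+ against MS−, 1 rose and 5 fell in MS+ against FBS, and 1 rose and 2 fell in MS− against FBS. Among all features 13.9% fell in MS+ against FBS and 9.63% in MS−. The one that rose was Lrrc32 each time, the gene of GARP, which holds latent TGF-beta at the cell surface. It was at 58.4 and 57.4 CPM with FBS, 113 and 150.4 with MS−, and 222 and 264 with MS+. The settings did not overlap, in the order FBS, MS−, MS+ in each rat. Lrrc32 rose by 2.04 in MS+ over FBS (SE 0.10, limma adjusted p 1.51e-09) and by 1.16 in MS− over FBS (SE 0.10, limma adjusted p 1.003e-06), and both passed without the block (0.00309 and 0.0109). In MS+ over MS− it rose by 0.88 (SE 0.10, limma adjusted p 8.65e-05), which was lost only without the block (0.116).

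The genes of this list that fell had varied roles. Emilin1, known to restrain TGF-beta maturation, fell in MS+ against FBS by 0.43 (SE 0.09, limma adjusted p 0.00234, and 0.0405 without the block). In that comparison Ltbp2 also fell by 0.40 (limma adjusted p 0.00448, and 0.348 without the block). Htra1 fell by 0.29 (limma adjusted p 0.0187, and 0.134 without the block) and Ltbp3 by 0.29 (limma adjusted p 0.0190, and 0.230 without the block). Fmod, a small proteoglycan, fell by 0.49 there (limma adjusted p 0.0296), a call lost without the block (0.776), FBS replicate 1 (0.291), MS− replicate 1 (0.0547), MS− replicate 2 (0.0762) or MS+ replicate 1 (0.152), with no filter (0.0791), in limma-voom (0.115) and in DESeq2 (0.281). Ltbp4 fell in MS− against FBS by 0.76 (limma adjusted p 0.00190), lost without the block (0.605) or MS− replicate 1 (0.0921). Htra1, a secreted protease, fell there by 0.40 (limma adjusted p 0.00292), lost without the block (0.0879), MS− replicate 1 (0.127) or MS− replicate 2 (0.193). Ltbp2 fell in MS+ against MS− by 0.31 (limma adjusted p 0.0447), and was lost without the block (0.627), either MS− library (0.444 and 0.520) or either MS+ library (0.217 and 0.118), with no filter (0.151), under DESeq2 size factors (0.0524) and in DESeq2 (0.0930).

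Of 11 tested genes of Smad transduction and feedback, 1 fell in MS+ against MS−, 3 rose and 4 fell in MS+ against FBS, and 2 rose and 1 fell in MS− against FBS. All features passed in 10.1%, 28.2% and 20.5% of cases in these comparisons, so the first and the last count were near the background. Pmepa1, a TGF-beta-induced feedback inhibitor, was at 846 and 678 CPM with FBS, 1482 and 1061 with MS−, and 1302 and 979 with MS+. It rose in MS− by 0.73 (SE 0.08, limma adjusted p 1.15e-05) and in MS+ by 0.58 (SE 0.08, limma adjusted p 8.97e-05), both lost only without the block (0.115 and 0.136). Smurf1 and Smurf2 are ubiquitin ligases that mark receptors and Smads for degradation, and they moved apart. Smurf1 rose by 0.41 in MS+ (limma adjusted p 0.00135, and 0.139 without the block) and by 0.39 in MS− (limma adjusted p 0.00260). The latter was lost without the block (0.204), MS− replicate 1 (0.0946) or MS− replicate 2 (0.120).

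Smurf2 fell by 0.54 in MS+ against FBS (limma adjusted p 0.000322, and 0.0181 without the block) and fell by 0.36 in MS+ against MS− (limma adjusted p 0.0170). The second call was lost without the block (0.174), MS− replicate 1 (0.213), MS− replicate 2 (0.345) or MS+ replicate 2 (0.0860), with no filter (0.0724) and in DESeq2 (0.219). Smad6, an inhibitory Smad known mainly from the BMP branch, fell by 1.04 in MS+ and fell by 1.06 in MS− (limma adjusted p 0.00104 and 0.00133). FBS of rat 1 was its highest library, at 62.2 CPM beside 26.9 in rat 2. Both calls were lost without the block (0.112 and 0.152), and that of MS− also without FBS replicate 1 (-0.57, 0.0519) or MS− replicate 1 (0.0816) and with no filter (0.0513). Smad7, the other inhibitory Smad, passed in no comparison and ranged from 129 to 189 CPM. Of the Smads that carry the signal, Smad2 differed by -0.43 in MS+ against FBS (limma adjusted p 0.00723, and 0.0456 without the block). Smad3 differed there by 0.38 (limma adjusted p 0.0181, and 0.111 without the block) and Tgif1 by -0.50 (limma adjusted p 0.00634, and 0.260 without the block). Smad2, Smad3 and Tgif1 passed in neither other comparison.

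**Figure D4:**
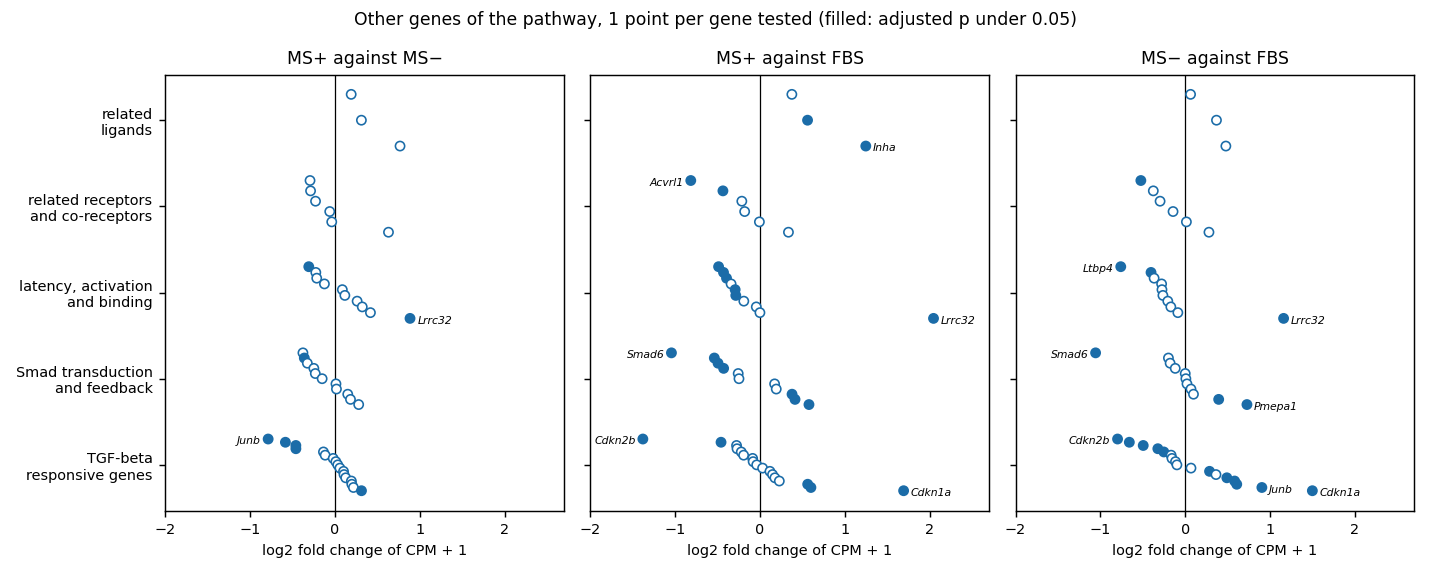
Log2 fold changes of CPM + 1 for the 47 tested genes of the 5 pathway lists in the 3 comparisons, 1 point per gene, filled where the adjusted p was under 0.05 with the rat as a block. Filled points beyond 0.7 in either direction carry their symbol. Lrrc32 is at 0.88, 2.04 and 1.16, and filled points lie on both sides of 0 in the Smad and the responsive genes.

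Of 17 tested TGF-beta responsive genes, 1 rose and 4 fell in MS+ against MS−, 3 rose and 2 fell in MS+ against FBS, and 6 rose and 5 fell in MS− against FBS. Of all features 10.1%, 28.2% and 20.5% passed, and the 5 of 17 in MS+ against FBS were at that background. The medians were 0.03, -0.04 and -0.10. More genes passed downward than upward in MS+ against MS−, where the median was above 0. Cdkn1a, the cell cycle inhibitor p21, rose by 1.69 in MS+ and 1.498 in MS− over FBS (limma adjusted p 5.80e-10 and 7.03e-09, and 0.000832 and 0.00185 without the block). Cdkn2b, the inhibitor p15, fell by 1.38 in MS+ and fell by 0.80 in MS− (limma adjusted p 1.57e-06 and 0.000387), and passed without the block too (0.00734 and 0.0444), but the MS− call was lost without MS− replicate 2 (0.0619). In MS+ against MS− it fell by 0.58 (limma adjusted p 0.00947), lost without the block (0.200) or MS− replicate 1 (0.405), with no filter (0.0898) and in DESeq2 (0.109).

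Junb, an AP-1 factor, separated the 2 rat sera. It was at 316 and 358 CPM with FBS, 600.0 and 661 with MS−, and 403 and 329.8 with MS+. It rose in MS− over FBS by 0.90 (SE 0.10, limma adjusted p 1.14e-05, and 0.0143 without the block) and fell in MS+ against MS− by 0.79 (SE 0.10, limma adjusted p 0.000217, and 0.111 without the block). Snai1, a transcription factor of mesenchymal transition, rose over FBS in both rat sera. The rise was 0.60 in MS+ (limma adjusted p 0.000136, and 0.0240 without the block) and 0.29 in MS− (limma adjusted p 0.0335, and 0.202 without the block), beside 0.31 in MS+ over MS− (limma adjusted p 0.0370). The latter was lost without the block (0.272), either MS− library (0.549 and 0.188) or MS+ replicate 1 (0.210), with no filter (0.118) and in DESeq2 (0.260). Col1a1, the chain of type I collagen, fell by 0.66 in MS− (limma adjusted p 0.00376) and fell by 0.46 in MS+ (limma adjusted p 0.0243). Both were lost without the block (0.195 and 0.284) and with no filter (0.0925 and 0.171). The MS− call was also lost without MS− replicate 1 (0.354) or 2 (0.182), and the MS+ call without either MS− library (0.186 and 0.187) or either MS+ library (0.208 and 0.245).

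Over the 6 libraries, the feature most like each member was sought among 7256 others with a mean of at least 10 CPM. For Fstl3 this was Pmepa1, with a Pearson r of 0.99 on log2(CPM + 1). For Tgfb2 it was the collagen gene Col1a2 (r 0.99), which was at 22348 and 20843 CPM with FBS, 15249 and 15376 with MS−, and 18894 and 16778 with MS+. For Ltbp1 it was Rnf13 (r 0.997), and 140 features exceeded 0.95 with Ltbp1, beside 53 with Fstl3 and 26 with Tgfb2. For Fst it was Slc4a7, for Inhba Spcs3, for Tgfb1 Tmem30b, for Tgfb3 Klhl31, for Tgfbr1 Gtf2b, for Tgfbr2 Zfp672 and for Tgfbr3 Taok2, at r of 0.98 to 0.99. The 6 points share 2 rats and 3 sera, so these values describe the libraries only.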

How the data were processed

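RNA-seq of 6 libraries was analysed, 2 per culture setting. The reads were poly(A)-selected, and adapter and low-quality reads were removed by the sequencing company. The authors aligned them to the rat genome rn4 with Bowtie2 2.1.0, counted them per transcript with HTSeq 0.5.4p3 in its intersection-nonempty mode and scaled them with TMM in edgeR. The authors deposited this scaled signal in CPM. Strand use was not stated. Whole reads were recovered by dividing each library by the value of 1 read, and 100% of values came out whole within 1e-06 reads. Reads are not independent molecules, so floors cover counting error only.

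Features at 1 CPM or more in both libraries of at least 1 group were kept. Differences were tested on log2(CPM + 1) with limma 3.58.1 in R 4.3.3 (two-sided moderated tests with an intensity trend), with culture setting and the rat as terms, over all 6 libraries. This understates the change of low genes. The fit leaves 2 residual degrees of freedom, to which eBayes adds a prior of 13.4. Adjusted p-values are Benjamini-Hochberg over all 9820 features. The rat, taken as the replicate number, entered as a block since cells of 2 rats were used in each setting per the labels. Across features, the difference between the rats in 1 setting correlated with that in another by 0.49 to 0.62 over the 3 pairs of settings. Libraries of a group were not copies, with a chi-square of 13.5 to 15.2 per degree of freedom. P-values rest on the scatter left between these libraries, 1 per rat and setting, after setting and rat are fitted, moderated by that prior. They do not measure variation between serum donors.

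Alternatives were no block, a pseudocount of 0.1, no filter, DESeq2 size factors, library totals, limma-voom, edgeR 4.0.16 and DESeq2 1.42.0 on recovered reads with the block, and each library left out, where the lone library of its group is assumed to vary like the others, so calls gained or lost there rest on the other groups and the prior. The fits were also run on simulated reads with a rat effect and changed genes built in. That run serves as a check of the code and cannot show whether the block suits these data. The members and gene lists were chosen with earlier results of these data known. Named were all members and, per list and comparison, up to 2 largest rises and 2 largest falls past the threshold with 1 direction in both rats, and the feature most correlated with each member. Calls of Snai1, Htra1, Ltbp2, Ltbp3, Smad2, Smad3 and Tgif1 outside this rule are given with and without the block only. They are not counted among the named calls below. The 5 pathway lists and 6 marker lists were described by counts, medians and summed levels only. RefSeq names and promoters are of GRCr8, and positions in rn4 are 1-based.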

Additional observations from a re-analysis of the deposited data

How the results depend on the processing

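Counts of calls and the fold changes of members and named pathway genes were recomputed under 14 alternatives, while list medians, shares without overlap, rat differences and correlations were not. Without the replicate block, 2, 944 and 472 features passed for MS+ against MS−, MS+ against FBS and MS− against FBS, in place of 987, 2773 and 2011. Members passing were then 0, 0 and 0 in place of 1, 4 and 2, and pathway genes 0, 9 and 4 in place of 8, 22 and 18. The cause was not tested beyond the rat term itself. With no filter on low values 183 and 1135 features passed for MS+ against MS− and MS− against FBS, with 2 and 11 pathway genes. DESeq2 with the block passed 274, 1173 and 802 features and 3 pathway genes between MS+ and MS−. In that comparison 0 members passed with a pseudocount of 0.1, with no filter or in DESeq2, and 2 with limma-voom or edgeR.

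With 1 library left out, which leaves 1 residual degree of freedom and 1 arm with a lone library assumed to vary like the other groups (the spread rests on those groups and the prior), 97 to 1631 features, 0 to 4 members and 2 to 12 pathway genes passed for MS+ against MS−, and 638 to 2714 features, 2 to 6 members and 6 to 18 pathway genes for MS− against FBS. For MS+ against FBS these were 2042 to 2727 features, 4 to 5 members and 15 to 21 pathway genes. Directions turned in 6 comparisons of single members. Ltbp1 between MS+ and MS− was 0.0023 in edgeR and 0.00097 in DESeq2, and -0.18 to 0.16 with a library left out. Inhba there ranged from -0.30 to 0.22. Against FBS, Tgfb1 in MS+ ranged from -0.14 to 0.27, Tgfb3 in MS+ from -0.12 to 0.10, Tgfbr1 in MS− from -0.30 to 0.18 and Fst in MS− from -0.0296 to 0.72. Scaling moved the median of all features by at most 0.05.

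Of 32 calls of named pathway genes, 11 held under every alternative, 20 were lost without the block and 15 in some other setting.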
